A study of Mus musculus with 24 samples.

Results

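The cap-binding protein eIF4E1 brings ribosomes to mRNAs through the eIF4F complex, and a set of growth and survival mRNAs has long been described as particularly dependent on it. They encode the D-type cyclins, which activate CDK4 and CDK6 in G1, the transcription factor MYC, ornithine decarboxylase (ODC1, the rate-limiting enzyme of polyamine synthesis), the anti-apoptotic BCL2 family proteins MCL1 and BCL-XL (gene Bcl2l1), the angiogenic ligand VEGFA, survivin (Birc5, a subunit of the chromosomal passenger complex) and the caspase inhibitor XIAP. mTOR keeps eIF4E1 free by phosphorylating the 4E binding proteins, and the inhibitor Torin1, which blocks both mTOR complexes, lets these proteins sequester it. Of the 10 genes Ccnd1, Ccnd2, Ccnd3, Myc, Odc1, Mcl1, Bcl2l1, Vegfa, Birc5 and Xiap, chosen by symbol, 7 had a row in each of the 8 count tables, out of 12746 gene symbols in the series. Ccnd2, Myc and Vegfa were not analysed here.

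The cells were N2a, a mouse neuroblastoma line. The ctrl cells had been transfected with the empty pSpCas9 vector, and the eIF4E3 KO cells with vectors carrying 3 guide RNAs against eIF4E3 exons, in both cases over repeated rounds of puromycin selection. The methods name no clone, so both are described here as selected pools. Cells of each genotype received 250 nM Torin1 in DMSO or DMSO alone for 2 h, and, per the labels, each replicate was a different passage. Whether libraries of different conditions with the same replicate number share a passage is not stated there. RNA-seq gave 12 libraries (3 per condition, totals of 17048192 to 28911595 counts) and ribo-seq, which counts the ribosome-protected fragments (footprints) on each coding sequence (CDS), gave 11 (669358 to 5287270 counts). The 2 ctrl DMSO footprint libraries are replicates 1 and 3, and replicate 2 was not analysed here. Replicate 3 of that condition was the shallowest library. Eif4e3 itself lay at 12.0 to 18.2 CPM (counts scaled to library size) of mRNA in ctrl and 2.89 to 5.04 in KO libraries (-2.05 ± 0.24 on the log2 scale in DMSO, adjusted p = 0.0312). Of 13 neuroblastoma and sympathoadrenal markers 12 had counts. Their summed mRNA was 3807 to 4579 CPM in ctrl DMSO and 3521 to 3659 in ctrl Torin1, and 3817 to 4535 in KO DMSO and 3643 to 3802 in KO Torin1, and their part in the results under Torin1 was not tested. No marker list of fibroblasts (3 of 8 with counts), leukocytes (1 of 6), endothelium (2 of 3) or glia (1 of 5) exceeded 5.16 CPM of mRNA in any library. In footprints the neuroblastoma list lay at 4050 to 7675 CPM. There the fibroblast list (2 of 8 with counts) reached 12.0 CPM in ctrl Torin1 and the endothelial list (1 of 3) 7.41 in KO Torin1. Col1a2, Ptprc and Gfap of these other lists were not analysed here.

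Levels are given as CPM scaled by the trimmed mean of M-values (TMM), and the footprint to mRNA ratio of a condition as a measure of translational efficiency (TE). Ratios of single replicates divide footprints by mRNA of the same replicate number, and that the 2 libraries share a passage was not tested. In ctrl DMSO these ratios leave out RNA-seq replicate 2, which the TE test uses. Every adjusted p is from the quasi-likelihood test of edgeR with Benjamini-Hochberg adjustment over all transcripts tested in that comparison, and a gene is called at an adjusted p below 0.05. Fold changes are on the log2 scale with their standard error (SE). The TMM factors of the footprint libraries were 0.903 to 0.933 in DMSO and 1.06 to 1.09 in Torin1. Without this scaling the median log2 change of all footprints under Torin1 moved from 0.02 in both genotypes to 0.23 (ctrl) and 0.26 (KO), and the share of footprint calls that were higher went from 36.4% to 71.2% (ctrl) and from 45.5% to 71.1% (KO). For TE that share went from 8.2% to 36.0% (ctrl) and from 37.4% to 69.4% (KO). All changes under Torin1 are therefore relative to the bulk of transcripts, the sign of any list median smaller in size than this shift depends on the scaling, and total translation per cell was not measured by these counts. In such bulk libraries fewer expressing cells and less RNA per cell cannot be told apart.

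In ctrl cells in DMSO the levels of the 7 mRNAs differed widely. Per kilobase of CDS, mRNA was highest for Odc1 (363 ± 21.8 CPM, SD, n = 3) and Birc5 (352 ± 35.9), which did not differ beyond their spread. Ccnd1 followed at 174 ± 25.9, then Ccnd3 at 53.3 ± 5.63 and Mcl1 at 43.1 ± 2.95, Bcl2l1 at 22.7 ± 2.77 and Xiap at 3.42 ± 1.56. All neighbours after Birc5 in this order differed by more than their SDs. Odc1 and Birc5 lay at the 95.7 and 95.6 percentile of 10713 transcripts, and Xiap at the 10.9 percentile.

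The order of footprints per kilobase was another one. Birc5 (375 ± 71.9 CPM, n = 2) and Ccnd1 (268 ± 24.3) led, followed by Mcl1 (133 ± 6.91) and Odc1 (121 ± 19.0), which overlapped, then Ccnd3 (53.4 ± 7.63), Bcl2l1 (23.2 ± 6.24) and Xiap (6.43 ± 2.96). All other neighbours in this order differed by more than their SDs. The footprint to mRNA ratio therefore set Mcl1 and Odc1 at opposite ends. In ctrl DMSO cells it was 2.97 ± 0.0897 (n = 2) for Mcl1 and 0.344 ± 0.0510 for Odc1. Taken as the ratio of the condition means, these mRNAs stood at the 95.3 and the 7.12 percentile of 10502 transcripts, whose median was 0.924. Ccnd1, Birc5, Bcl2l1 and Ccnd3 lay between 1.05 and 1.45, and Xiap at 1.56 ± 0.888, with replicates 1 and 3 at 2.18 and 0.927.

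These transcripts also differed in their leaders. On GRCm38 (GENCODE M21), the 5′ transcript leader (5′ TL) of Odc1 (chr12:17544794-17551084, plus strand, 12 exons) is 489 nt long and 70.6% GC, the 91.0 percentile in length of 10929 transcripts whose median is 172 nt. Odc1 makes the precursor of all polyamines, and its leader holds 2 upstream ATG triplets. Xiap (chrX:42067836-42109656, plus strand) has a leader of 379 nt, and Ccnd3 (chr17:47505051-47599683, plus strand) one of 327 nt with 6 upstream ATG triplets, the 95.6 percentile. Bcl2l1 (chr2:152780668-152831728, minus strand) has 238 nt, Ccnd1 (chr7:144929931-144939869, minus strand) 176 nt and Birc5 (chr11:117849251-117855732, plus strand) 100 nt. Mcl1 (chr3:95658788-95663176, plus strand) has the shortest, 69 nt at 73.9% GC, and is the only one of the 7 whose annotated start is a C followed by 4 pyrimidines, a start that 2.31% of all transcripts share. No exon of another gene overlaps any of the 7 CDSs. Ccnd3 has an annotated processed pseudogene, Ccnd3-ps, and whether reads of the 2 were told apart was not tested, so its counts are uncertain to that extent.

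**Figure D1:**
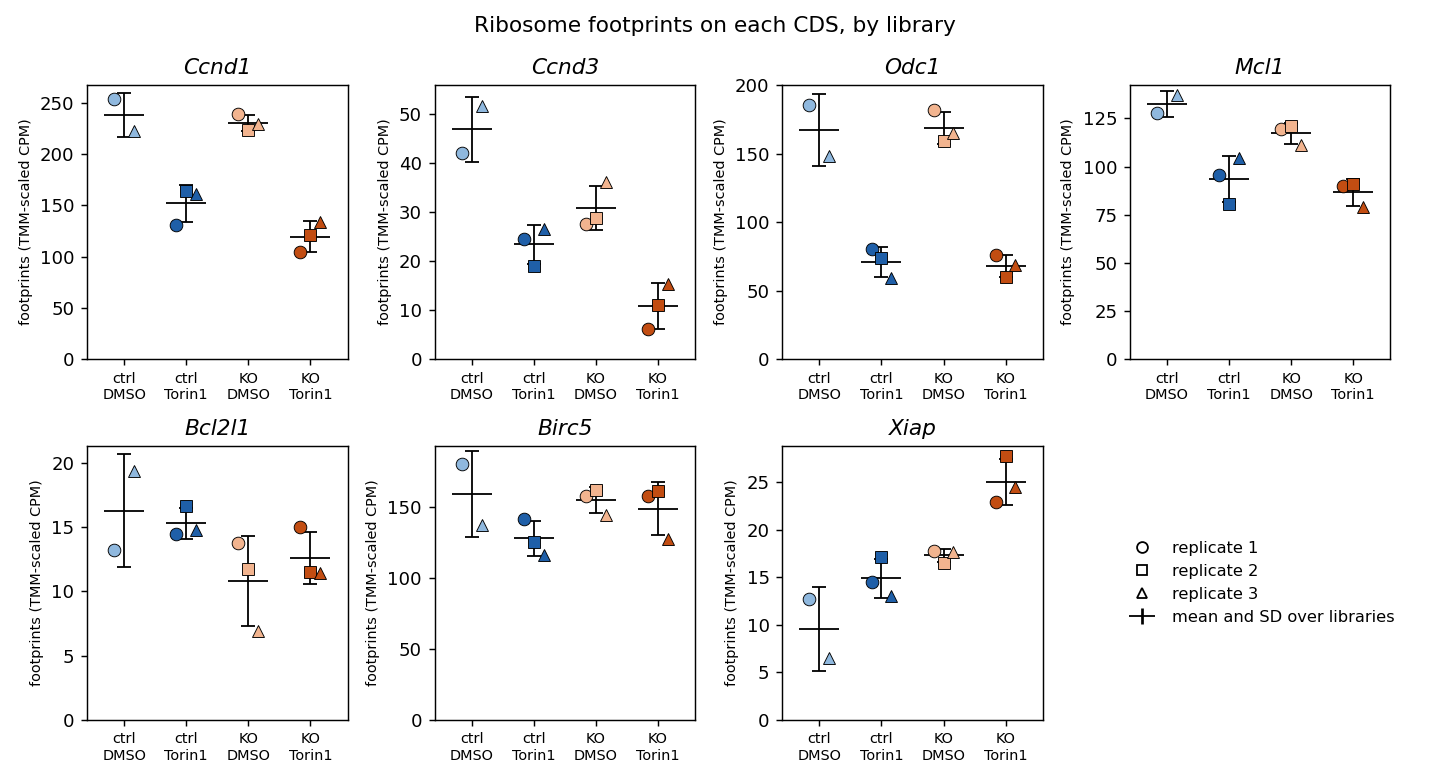
Footprints on the CDS of each of the 7 mRNAs (y axis, TMM-scaled CPM from 0) in the 4 conditions (x axis). Each symbol is 1 library, its shape the replicate number, and the bar the mean with SD (n = 2 for ctrl DMSO, n = 3 otherwise). Under Torin1 the libraries for Ccnd1, Ccnd3, Odc1 and Mcl1 lie below those in DMSO in both genotypes, and those for Xiap above. Of all transcripts, 21.9% (ctrl) and 25% (KO) were separated on the lower side, and 21% and 24.5% on the higher side.

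The first question was how ribosome occupancy of these mRNAs changed when mTOR was inhibited in ctrl cells. Footprints fell on 4 of the 7, Odc1, Ccnd1, Ccnd3 and Mcl1, and rose on none, where 15.6% of 10693 transcripts were called and 9.93% were lower. The same 4 were those whose groups did not overlap on the lower side, as held for 21.9% of all transcripts. The median log2 change of the 7 was -0.49, against 0.02 over all transcripts.

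Odc1 had the largest footprint change. It lay at 186 and 149 CPM in the 2 DMSO libraries and at 80.3, 73.6 and 59.0 in the 3 Torin1 libraries. The groups were well apart, and 41.3% of the DMSO level was left (-1.28 ± 0.17, adjusted p = 2.51e-05). Ccnd1, the D cyclin with the most footprints, went from 253 and 223 CPM to 131, 164 and 161. All 3 Torin1 libraries lay below both DMSO libraries (-0.66 ± 0.15, adjusted p = 0.00556). Ccnd3 went from 42.2 and 51.7 CPM to 24.6, 19.0 and 26.7, again with no overlap (-0.96 ± 0.23, adjusted p = 0.00895). For Mcl1, a short-lived protein that must be made continuously, the DMSO libraries were at 128 and 137 CPM and the Torin1 libraries at 95.5, 80.5 and 104 (-0.49 ± 0.16, adjusted p = 0.0477).

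Odc1 kept its footprint call with each of the 5 libraries left out. The call of Ccnd1 was lost without ctrl DMSO replicate 1 (-0.54, adjusted p = 0.0940) and that of Ccnd3 without ctrl Torin1 replicate 2 (-0.82, adjusted p = 0.0692). Mcl1 lost its call whichever of the 5 libraries was left out (adjusted p = 0.0568 to 0.236), with a replicate block (-0.41, adjusted p = 0.0758), with DESeq2 (adjusted p = 0.135) and without TMM scaling (-0.28, adjusted p = 0.231).

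Footprints of the other 3 did not pass the test in ctrl cells. Birc5 lay at 180 and 137 CPM in DMSO and at 141, 125 and 116 in Torin1, with groups that overlapped (-0.36 ± 0.16, adjusted p = 0.134). Without ctrl DMSO replicate 3 it was called (-0.50, adjusted p = 0.0214). Bcl2l1, counted only 12 to 55 times per ctrl library, had 13.2 and 19.4 CPM in DMSO and 14.5, 16.7 and 14.8 in Torin1. A change of its footprints was not detectable at this depth (0.08 ± 0.31, adjusted p = 0.898). Xiap had 12.7 and 6.46 CPM in DMSO and 14.5, 17.1 and 13.1 in Torin1, every Torin1 library above both DMSO libraries (0.40 ± 0.33, adjusted p = 0.455). That separation held for 21% of all transcripts. The DMSO value of 6.46 rests on 4 counts, for which the exact 95% interval (Clopper-Pearson, unscaled) runs from 1.63 to 15.3 CPM and covers counting error only.

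In mRNA fewer changes passed. Torin1 lowered the mRNA of Ccnd3 alone among the 7 (2.73% of 10958 transcripts were called and 0.675% were lower), from 41.4, 51.0 and 48.0 CPM in DMSO to 31.5, 30.1 and 34.0 (-0.55 ± 0.13, adjusted p = 0.0451). That call was lost whichever of the 3 ctrl Torin1 libraries was left out (adjusted p = 0.136 to 0.235) and without TMM scaling (adjusted p = 0.0675). Odc1 mRNA was at 489, 538 and 483 CPM in DMSO and at 438, 415 and 412 in Torin1 (-0.25 ± 0.10, adjusted p = 0.185). Ccnd1 mRNA lay at 154, 132 and 178 CPM in DMSO and at 138, 134 and 132 in Torin1 (-0.19 ± 0.12, adjusted p = 0.341). For Mcl1 the difference had the other sign to that of its footprints, with 43.9, 39.6 and 45.2 CPM in DMSO and 49.6, 46.7 and 50.6 in Torin1 (0.19 ± 0.12, adjusted p = 0.338).

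Xiap mRNA varied between replicates. It was 5.82, 2.5 and 6.97 CPM in ctrl DMSO and 8.98, 7.94 and 8.98 in ctrl Torin1, and in both DMSO groups replicate 2 was the lowest. The unblocked test did not call Xiap (0.76 ± 0.29, adjusted p = 0.161), and with the replicate number as a block it was called higher (0.85, adjusted p = 0.00791, with 12.1% of transcripts called in that fit). Birc5 mRNA, at 146, 166 and 136 CPM in DMSO and 128, 132 and 130 in Torin1, did not overlap between the groups and was not called (-0.19 ± 0.11, adjusted p = 0.296). The mRNA groups did not overlap on the lower side for 16% of all transcripts. Bcl2l1 mRNA stayed between 13.7 and 19.0 CPM in all 12 libraries.

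**Figure D2:**
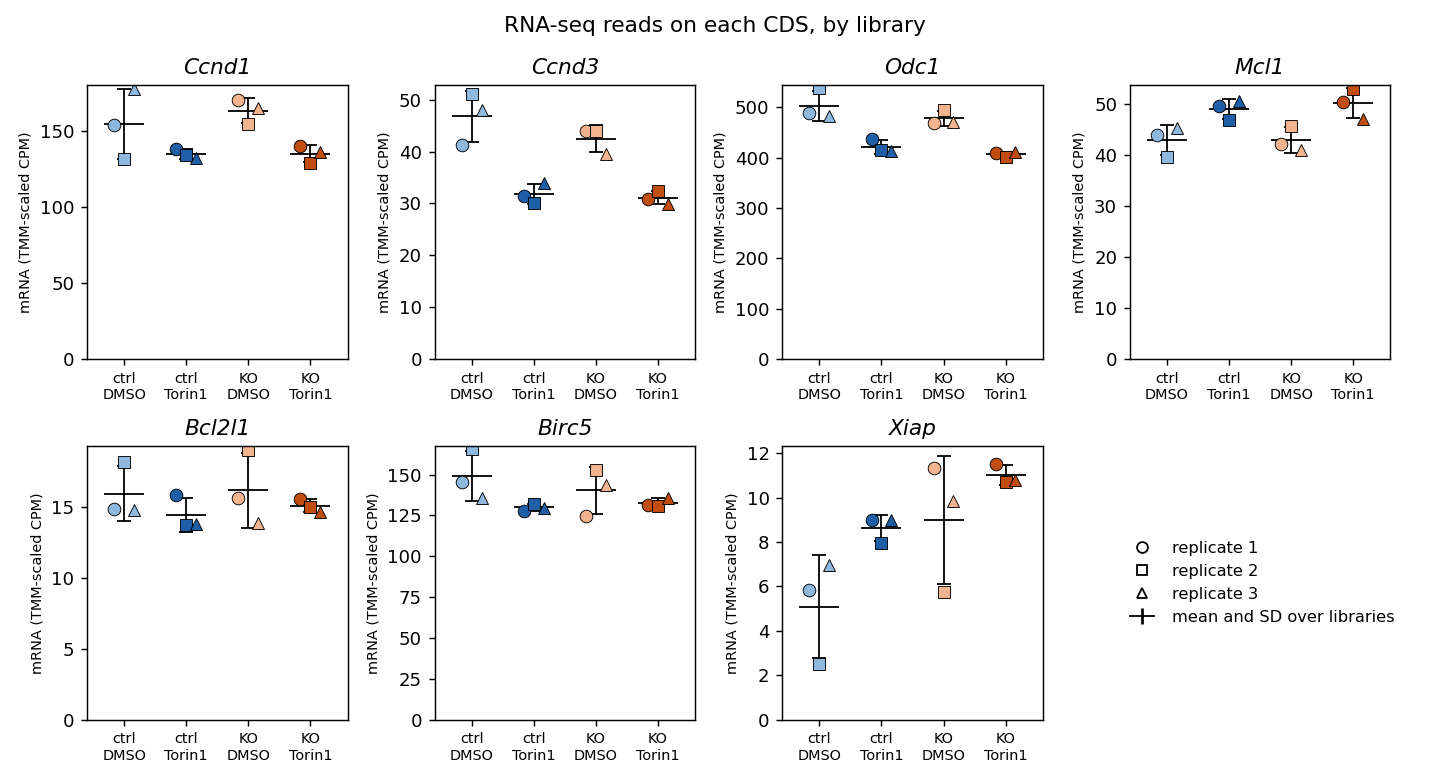
RNA-seq reads on the CDS of each of the 7 mRNAs (y axis, TMM-scaled CPM from 0) in the 4 conditions (x axis), with symbols and bars as for the footprints and n = 3 throughout. The drop of Ccnd3 under Torin1 and the low replicate 2 libraries of Xiap in DMSO can be seen, and for Odc1 and Ccnd1 the step is small beside that of their footprints.

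TE, the change of footprints beyond that of mRNA, was lower in ctrl cells for Odc1 alone (-1.02 ± 0.20, adjusted p = 0.00204), where 4.68% of 10432 transcripts were called and 4.29% were lower. Its ratio went from 0.380 and 0.308 in DMSO to 0.183, 0.177 and 0.143 in Torin1. The call was lost without ribo-seq ctrl DMSO replicate 1 (-0.82, adjusted p = 0.0697). Mcl1 came next, from ratios of 2.91 and 3.03 to 1.93, 1.72 and 2.06 (-0.69 ± 0.20, adjusted p = 0.0561), and was called with DESeq2 (adjusted p = 0.0488) and with all 4 conditions in 1 fit (adjusted p = 0.00721). Ccnd1 (-0.47 ± 0.20) and Ccnd3 (-0.41 ± 0.26) were not called, and the mRNA of Ccnd3 had itself fallen, as given above. For scale, 78 cytosolic ribosomal protein mRNAs, the best known mTOR targets, had a median TE change of -1.75 in the same fit.

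**Figure D3:**
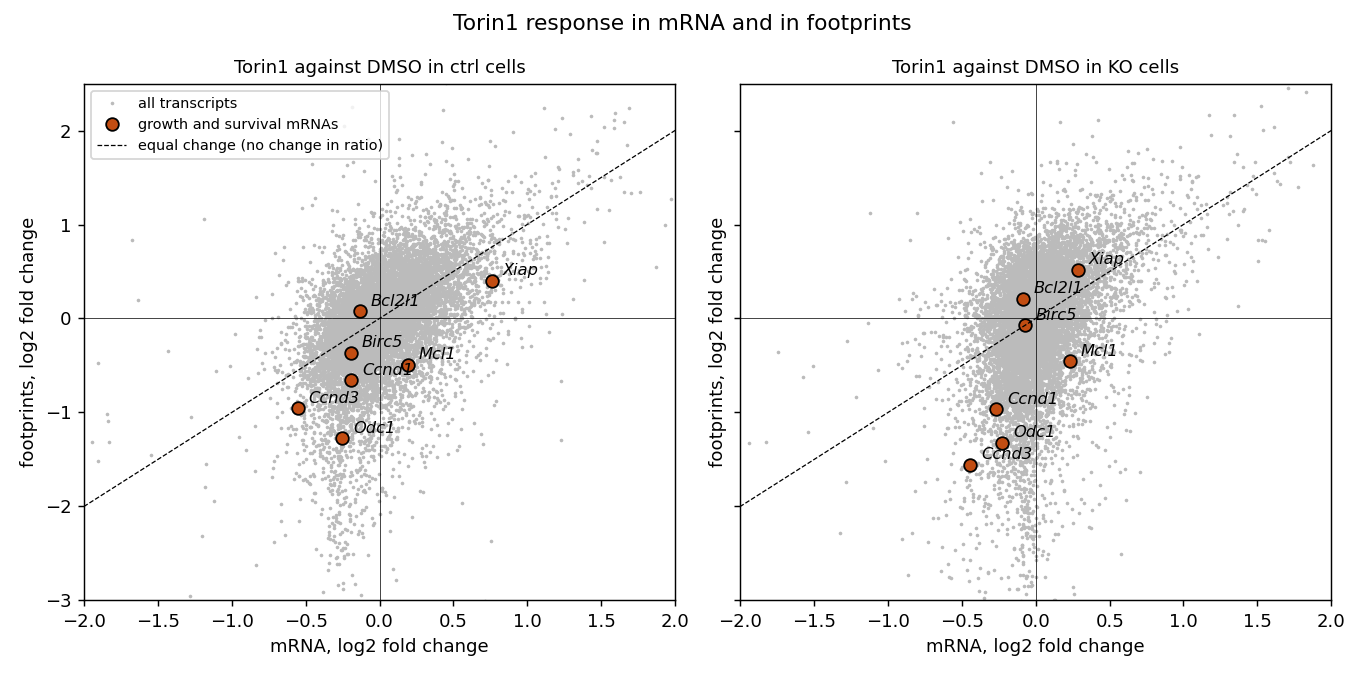
Change of mRNA (x axis) and of footprints (y axis) under Torin1, both as log2 fold change, for all transcripts tested in both assays (grey, 10432 in ctrl on the left and 10535 in KO on the right) with the 7 mRNAs in orange. Points under the dashed line had a lower log2 change of footprints than of mRNA. Odc1, Ccnd1, Ccnd3 and Mcl1 lie under it in both genotypes. Beyond the axes lie 39 transcripts on the left and 56 on the right.

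The response to Torin1 was then measured in KO cells. Footprints fell on the same 4 mRNAs and rose on Xiap, so that 5 of 7 were called, where 40.6% of 10822 transcripts were called and 22.1% were lower. The groups of these 4 did not overlap on the lower side, as held for 25.0% of all transcripts. The median of the 7 was -0.45 (all transcripts, 0.02). No library enters the Torin1 comparison of both genotypes.

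In KO cells Ccnd3 footprints were at 27.6, 28.9 and 36.1 CPM in DMSO and at 6.17, 11 and 15.4 in Torin1. The highest Torin1 library held less than the lowest DMSO library, and 34.0% of the level was left (-1.56 ± 0.24, adjusted p = 4.27e-06). The Torin1 values rest on 14, 23 and 27 counts. Odc1 went from 182, 159 and 165 CPM to 75.8, 59.8 and 68.4 (-1.33 ± 0.13, adjusted p = 4.40e-10). Ccnd1 footprints went from 239, 224 and 229 CPM to 104, 121 and 133 (-0.97 ± 0.12, adjusted p = 6.26e-08). Those of Mcl1 went from 120, 121 and 111 CPM to 89.9, 90.9 and 78.7, 3 libraries against 3 without overlap (-0.45 ± 0.12, adjusted p = 0.00394).

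Odc1, Ccnd1, Ccnd3 and Mcl1 kept these calls with each of the 6 libraries left out. Without TMM scaling Mcl1 was no longer called (-0.21, adjusted p = 0.174), while the other 3 were.

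Xiap footprints were at 17.8, 16.5 and 17.7 CPM in KO DMSO and at 22.9, 27.7 and 24.5 in KO Torin1, the reverse of the cyclins (0.52 ± 0.20, adjusted p = 0.0378). Footprint groups did not overlap on the higher side for 24.5% of all transcripts. The call was lost with DESeq2 (adjusted p = 0.0879) and in 5 of 6 fits that left out 1 library (all but KO Torin1 replicate 1, adjusted p up to 0.138). Birc5 lay at 158, 162 and 144 CPM in DMSO and at 158, 161 and 127 in Torin1 (-0.07 ± 0.12, adjusted p = 0.667). Bcl2l1 lay at 13.8, 11.7 and 6.94 CPM and at 15.0, 11.5 and 11.4 (0.21 ± 0.28, adjusted p = 0.578).

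mRNA fell for 3 of the 7 in KO cells (9.97% of 11004 transcripts were called and 3.74% were lower), by small amounts. Ccnd3 mRNA went from 43.9, 44.0 and 39.5 CPM to 31.0, 32.4 and 29.9 (-0.45 ± 0.09, adjusted p = 0.00765) and kept its call with each library left out. Ccnd1 mRNA went from 170, 154 and 165 CPM to 140, 129 and 136 (-0.27 ± 0.07, adjusted p = 0.0283), and that of Odc1 from 469, 495 and 470 to 409, 402 and 410 (-0.23 ± 0.06, adjusted p = 0.0324). These 2 calls were lost with all 4 conditions in 1 fit (adjusted p = 0.132 and 0.0799), that of Ccnd1 in 5 of 6 and that of Odc1 in 4 of 6 fits that left out 1 library (adjusted p up to 0.148 for both). Mcl1 mRNA was higher in every Torin1 library, at 42.1, 45.7 and 40.9 CPM in DMSO and 50.3, 52.9 and 47.1 in Torin1, but was not called (0.23 ± 0.08, adjusted p = 0.106) unless KO DMSO replicate 2 was left out (0.28, adjusted p = 0.0292). The mRNA groups did not overlap on the higher side for 16.4% of all transcripts. Xiap mRNA was at 11.3, 5.77 and 9.84 CPM in DMSO and 11.5, 10.7 and 10.8 in Torin1 (0.28 ± 0.19, adjusted p = 0.370).

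TE fell for 4 of 7 mRNAs in KO cells, where 28.4% of 10535 transcripts were called and 17.8% were lower. These were Odc1 (-1.10 ± 0.13, adjusted p = 6.74e-07), Ccnd1 (-0.70 ± 0.13, adjusted p = 0.000254), Mcl1 (-0.68 ± 0.14, adjusted p = 0.000802) and Ccnd3 (-1.12 ± 0.25, adjusted p = 0.00169). All 4 calls held with each of the 12 libraries left out. The ratio of Ccnd3 went from 0.629, 0.657 and 0.913 to 0.199, 0.339 and 0.516, the 35.2 and 12.3 percentile of all transcripts. That of Mcl1 went from 2.84, 2.65 and 2.72 to 1.79, 1.72 and 1.67, which still left it at the 81.0 percentile. Xiap (0.24 ± 0.28), Bcl2l1 (0.30 ± 0.30) and Birc5 (0.01 ± 0.14) were not called. The 78 ribosomal protein mRNAs had a median of -2.03.

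**Figure D4:**
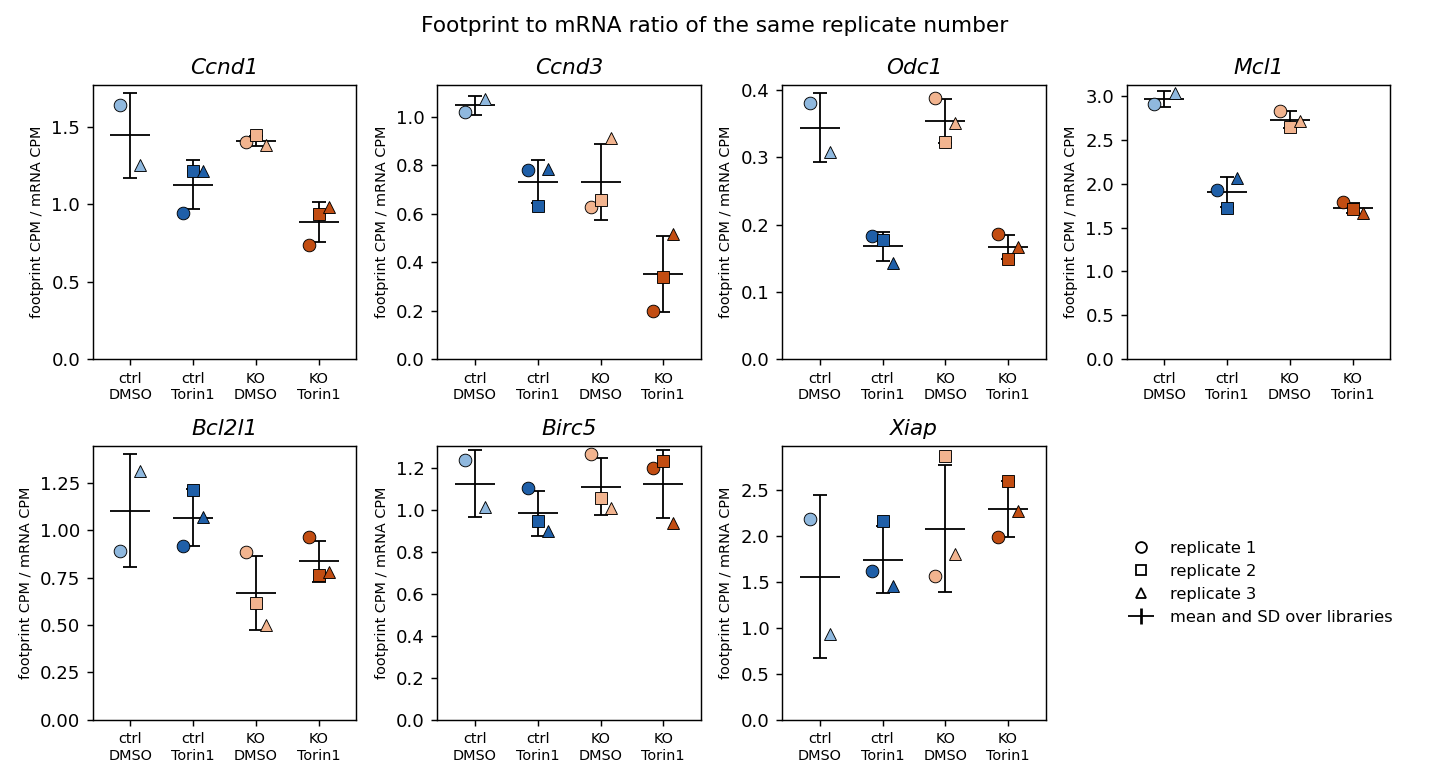
Footprint to mRNA ratio of libraries with the same replicate number (y axis, from 0) in the 4 conditions (x axis). Each symbol is 1 replicate and the bar the mean with SD (n = 2 for ctrl DMSO, n = 3 otherwise). Odc1 and Mcl1 lie lower under Torin1 in both genotypes, and for Ccnd3 the KO Torin1 replicates lie between 0.199 and 0.516, under all others.

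The next comparison set KO against ctrl cells without Torin1. The cells of the genotypes were transfected and selected separately. Here and under Torin1, loss of eIF4E3 therefore cannot be told apart from another difference between the selected pools. In DMSO none of the 7 was called between KO and ctrl cells, in mRNA, footprints or TE. The unadjusted p was under 0.05 for 1 of 7 in mRNA, 1 of 7 in footprints and 0 of 7 in TE. Over all transcripts 0.0183% of 10924 were called in mRNA, 0.0279% of 10757 in footprints and 0% of 10475 in TE. The unadjusted p was under 0.05 for 646, 850 and 426, so that the comparison without a block called almost nothing. With DESeq2 21, 3 and 0 transcripts were called, and with the replicate number as a block 866, 4 and 0. With DESeq2 also none of the 7 was called.

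The member with the smallest unadjusted p in mRNA was Xiap, at 5.82, 2.5 and 6.97 CPM in ctrl and 11.3, 5.77 and 9.84 in KO cells. The KO library was the higher for each of the 3 replicate numbers (0.83 ± 0.34, adjusted p = 0.683), and with the replicate number as a block the call was made (0.86, adjusted p = 0.00159, where 7.93% of all transcripts were called). In footprints it was Ccnd3, at 42.2 and 51.7 CPM in ctrl and 27.6, 28.9 and 36.1 in KO cells, with no overlap (-0.54 ± 0.21, adjusted p = 0.564). Xiap footprints were at 12.7 and 6.46 CPM in ctrl and 16.5 to 17.8 in KO cells (0.59 ± 0.29, adjusted p = 0.630). Odc1 (-0.02 ± 0.16), Ccnd1 (-0.06 ± 0.15), Birc5 (-0.08 ± 0.16) and Mcl1 (-0.16 ± 0.16) differed in footprints by about their SE or less, and Bcl2l1 by -0.42 ± 0.33 (adjusted p = 0.766). The 3 KO libraries of Mcl1 all lay below its 2 ctrl libraries. Such groups without overlap in footprints were found for 12.8% of all transcripts on the lower side, as for Ccnd3 and Mcl1. On the higher side, as for Xiap, they were found for 13.5%.

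Under Torin1, Ccnd3 was the one of the 7 that passed the test between genotypes. Its footprints were lower in KO cells, at 6.17, 11 and 15.4 CPM against 24.6, 19.0 and 26.7 in ctrl cells, without overlap (-1.13 ± 0.28, adjusted p = 0.00955), where 6.03% of 10792 transcripts were called. Footprint groups did not overlap on the lower side for 12.9% of all transcripts. Its mRNA was at 31.0, 32.4 and 29.9 CPM in KO and 31.5, 30.1 and 34.0 in ctrl cells, groups that overlapped (-0.03 ± 0.08, adjusted p = 0.894). TE was lower in KO cells (-1.10 ± 0.27, adjusted p = 0.0233), where 2.85% of 10509 transcripts were called. KO cells kept 45.8% of the ctrl footprints on this mRNA.

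This result rests on few counts and on single libraries. The footprint call was lost without KO Torin1 replicate 1 (-0.82, adjusted p = 0.102) and without ctrl Torin1 replicate 3 (-1.01, adjusted p = 0.0572), although the sign stayed in all 6 such fits. The TE call was lost in 4 of 12 such fits, without ribo-seq ctrl Torin1 replicate 1 (-1.07, adjusted p = 0.0529) or 3 (-0.98, adjusted p = 0.0776) or KO Torin1 replicate 1 (-0.78, adjusted p = 0.129) or 2 (-1.14, adjusted p = 0.0555), and with all 4 conditions in 1 fit (-1.10, adjusted p = 0.0582). The exact 95% interval of the unscaled level in KO Torin1 replicate 1 (14 counts) ran from 3.59 to 11 CPM, and that in ctrl Torin1 replicate 2 (41 counts), the lowest ctrl library, from 14.6 to 27.6.

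The other D cyclin, Ccnd1, had footprints of 104, 121 and 133 CPM in KO and 131, 164 and 161 in ctrl cells under Torin1, lower for each replicate number but with 1 KO library above the lowest ctrl library (-0.36 ± 0.12, adjusted p = 0.0739). Xiap footprints were at 22.9, 27.7 and 24.5 CPM in KO and 14.5, 17.1 and 13.1 in ctrl cells, every KO library above every ctrl library (0.74 ± 0.24, adjusted p = 0.0531). That separation held for 11.7% of all transcripts. With the replicate number as a block both were called (Ccnd1, -0.35, adjusted p = 0.0462, and Xiap, 0.75, adjusted p = 0.0446), where 7.19% of transcripts were called. Leaving out ctrl Torin1 replicate 1 (-0.45, adjusted p = 0.0287) or KO Torin1 replicate 3 (-0.44, adjusted p = 0.0495) also brought the Ccnd1 footprint call, and leaving out ctrl Torin1 replicate 1 its TE call (-0.46, adjusted p = 0.0485). Xiap mRNA was at 11.5, 10.7 and 10.8 CPM in KO and 8.98, 7.94 and 8.98 in ctrl cells (0.36 ± 0.11, adjusted p = 0.125), and no member was called in mRNA, where 1.96% of 11007 transcripts were (1 of 7 at an unadjusted p under 0.05, and 0 called with DESeq2).

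Odc1, Mcl1, Birc5 and Bcl2l1 gave no difference between genotypes under Torin1 that passed. For Odc1 the footprints were at 75.8, 59.8 and 68.4 CPM in KO and 80.3, 73.6 and 59.0 in ctrl cells (-0.05 ± 0.15), and its TE differed by 0.00 ± 0.14. Mcl1 differed by -0.10 ± 0.13 in footprints, Birc5 by 0.23 ± 0.12 and Bcl2l1 by -0.27 ± 0.27.

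**Figure D5:**
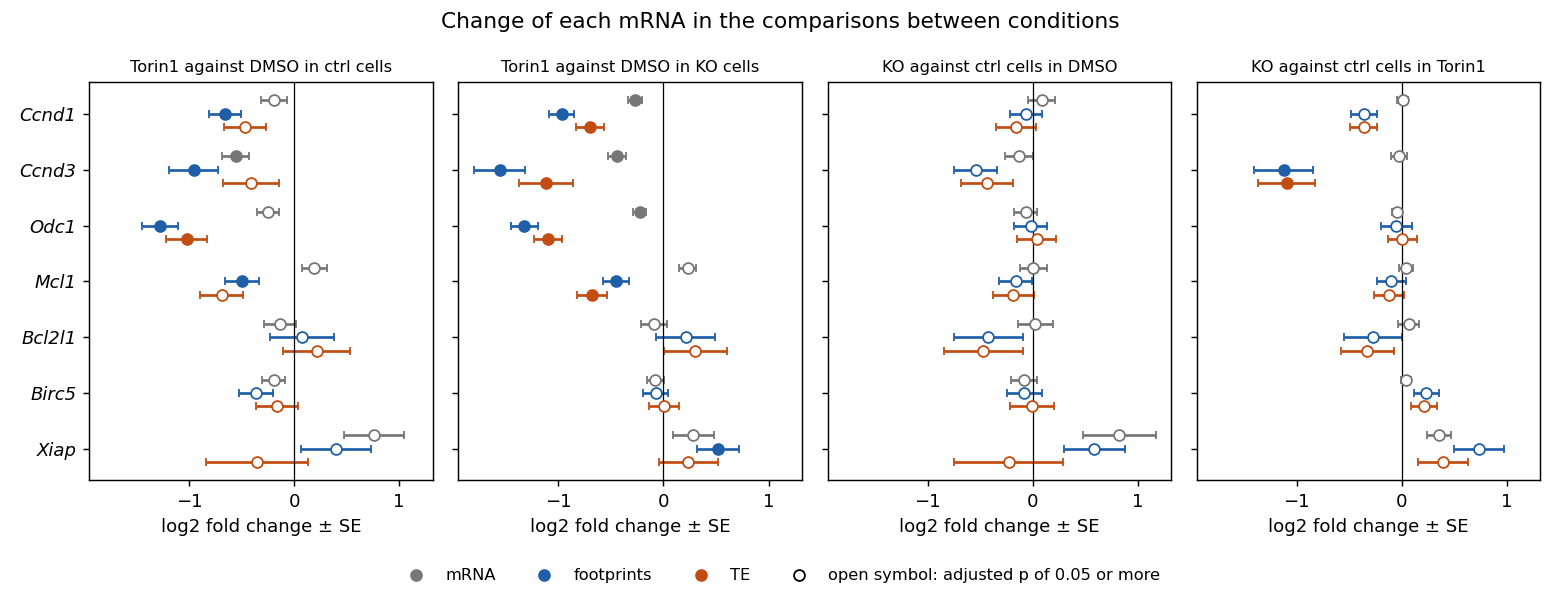
Log2 fold change with SE (x axis) of each of the 7 mRNAs (y axis) in mRNA (grey), footprints (blue) and TE (orange) for the 4 comparisons between conditions, filled where the adjusted p was below 0.05. In the Torin1 panels the fall of Odc1, Ccnd1, Ccnd3 and Mcl1 is seen in footprints and TE, and in the right panel Ccnd3 is the filled point, with Xiap and Ccnd1 on opposite sides of 0 and not called.

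Whether the response to Torin1 differed between the genotypes was tested as an interaction over all 4 conditions. None of the 7 passed in mRNA, footprints or TE, with edgeR or with DESeq2, and 0 of 7 had an unadjusted p under 0.05 in any of the 3. Over all transcripts 0%, 0.111% and 0% were called by edgeR (108, 738 and 607 at an unadjusted p under 0.05), and 0, 38 and 16 transcripts by DESeq2. The interaction for Ccnd3 was -0.59 ± 0.35 in footprints (adjusted p = 0.833) and -0.69 ± 0.37 in TE (adjusted p = 0.873), so that the larger fall in KO cells is not shown to differ from that in ctrl cells. For Odc1 it was -0.03 ± 0.21 in footprints and for Mcl1 0.06 ± 0.20.

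The genes that work with these proteins are described by their counts and medians. Their calls were not checked with other settings or with a library left out, so whether those near the threshold would hold was not tested. Over all transcripts, the share called higher under Torin1 was 5.69% in ctrl and 18.5% in KO footprints, 2.05% and 6.23% in mRNA and 0.383% and 10.6% in TE, and the shares called lower are given above. The first list held 18 cell cycle genes, most of them of the G1 to S transition. Of these 16 were tested. Under Torin1 none was called in ctrl footprints (median -0.11), where 15.6% of all transcripts were. In KO footprints 2 rose and 3 fell (median 0.01), where 40.6% of all transcripts were called. Cdkn1b, the CDK inhibitor p27, rose in KO footprints (0.74 ± 0.13, adjusted p = 2.63e-05), and the E-type cyclins Ccne2 (-0.65 ± 0.15, adjusted p = 0.000800) and Ccne1 (-0.50 ± 0.15, adjusted p = 0.00694) fell. The other 2 are Ccnb1 (0.30) and E2f1 (-0.64), and like Cdkn1b, Ccne2 and Ccne1 they are named after their values were seen. Cdk4, the kinase partner of the D cyclins, had 307 ± 54.2 CPM of footprints (SD, n = 2) in ctrl DMSO and 267 ± 32.0 (n = 3) in ctrl Torin1, and was not called in any of the comparisons. The TE of Ccnb1, a mitotic cyclin and so not itself a G1 to S gene, rose in ctrl (0.57 ± 0.16, adjusted p = 0.0486) and KO cells (0.50 ± 0.14, adjusted p = 0.00994). Between genotypes in Torin1 the TE of E2f1, a transcription factor released by cyclin D-CDK activity, was lower in KO cells (-0.87 ± 0.24, adjusted p = 0.0427).

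Of 12 MYC network genes, 10 were tested in mRNA under Torin1, of which 3 rose in ctrl and 4 in KO cells and none fell (medians 0.61 and 0.41, against 0.00 for all transcripts in both, of which 2.05% and 6.23% were called higher). Mycn, the MYC paralogue typical of neuroblastoma, went from 24.3 ± 3.02 to 62.7 ± 3.78 CPM of mRNA in ctrl cells (1.37 ± 0.13 on the log2 scale, adjusted p = 0.000133) and from 26.1 ± 4.86 (n = 2) to 76.8 ± 11.2 CPM of footprints (1.47 ± 0.21, adjusted p = 6.17e-05). In KO cells it rose by 1.30 in both assays, and its TE was not called in either genotype. Mnt (1.76 ± 0.18, adjusted p = 0.000152) and Mxd4 (1.09 ± 0.20, adjusted p = 0.0121), both antagonists of MYC on DNA, also rose in ctrl mRNA, and the MAX partner Mga rose in KO footprints (0.77 ± 0.13, adjusted p = 1.46e-05).

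In polyamine metabolism, 9 of 12 genes were tested. Under Torin1 2 fell and none rose in ctrl footprints (median -0.20), and 3 fell and 3 rose in KO footprints (median -0.19), where 9.93% and 22.1% of all transcripts fell and 5.69% and 18.5% rose. The 2 that fell in ctrl cells act directly downstream of or beside Odc1, namely spermidine synthase Srm (-0.89 ± 0.19, adjusted p = 0.00350) and Amd1 (-0.93 ± 0.22, adjusted p = 0.00667), which supplies the aminopropyl donor. Both fell in KO cells too (-1.12 ± 0.13, adjusted p = 9.67e-09, and -0.73 ± 0.16, adjusted p = 0.000364). The mRNA of Amd1 fell as well in KO cells (-0.72 ± 0.08, adjusted p = 0.000203), and its TE was not called. Azin1, which protects ODC1 from antizyme, rose in KO footprints (0.57 ± 0.12, adjusted p = 0.000169). In KO TE 3 of the 9 rose and 2 fell, where 10.6% and 17.8% of all transcripts did. Sat1 (0.95 ± 0.23, adjusted p = 0.00243), the enzyme that acetylates polyamines for their export and breakdown, Azin1 (0.56) and Oaz2 (0.65) rose. Srm (-0.96 ± 0.14, adjusted p = 8.96e-06) and Sms (-0.45) fell. Sms (-0.50), Oaz2 (0.47) and Sat1 (1.00) completed the KO footprint calls, and all called genes of this list are named after their values were seen. Sat1 footprints were higher in KO than in ctrl cells under Torin1 (0.88 ± 0.25, adjusted p = 0.0277).

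Among 14 other BCL2 family genes, 8 were tested in ctrl footprints and 7 in KO footprints, and the pro-apoptotic Bid alone rose in each (1.19 ± 0.29, adjusted p = 0.00801, and 0.66 ± 0.25, adjusted p = 0.0344), with list medians of 0.09 and -0.34 (15.6% and 40.6% of all transcripts were called). Bcl2 itself was counted 0 to 8 times per footprint library, too few to measure a change. Of 12 genes of the IAP family, their antagonists and caspases, 11 were tested and 1, Birc2 (cIAP1), rose in KO footprints (0.78 ± 0.23, adjusted p = 0.00702), where 18.5% of all transcripts did, while in ctrl cells none passed, where 15.6% of all did (medians 0.17 and 0.26). Htra2, a mitochondrial protease that antagonizes XIAP, was lower in KO than in ctrl footprints under Torin1 (-0.39 ± 0.12, adjusted p = 0.0460).

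The 3 partners of survivin in the chromosomal passenger complex are set beside Birc5. In KO cells TE rose under Torin1 for Cdca8 (0.99 ± 0.15, adjusted p = 1.28e-05), Incenp (0.70 ± 0.15, adjusted p = 0.000789) and Aurkb (0.45 ± 0.16, adjusted p = 0.0333), while the value for Birc5 was 0.01 ± 0.14. The difference between them was not tested. In KO cells 10.6% of all transcripts rose in TE. In ctrl cells the TE of none of the 3 was called (median 0.38). In KO footprints Cdca8 (0.61) and Incenp (0.61) rose and Aurkb was not called, and Cdca8 mRNA fell in KO cells (-0.37 ± 0.08, adjusted p = 0.0107). Of 12 VEGF and HIF genes, 8 were tested in ctrl footprints and 7 in KO footprints, and Hif1a, the oxygen-regulated transcription factor upstream of Vegfa, alone rose in each (0.49 ± 0.16, adjusted p = 0.0436, and 0.59 ± 0.12, adjusted p = 0.000190), with list medians of 0.34 and 0.23 (5.69% and 18.5% of all transcripts rose). Its footprints (0.50 ± 0.11, adjusted p = 0.00414) and TE (0.46 ± 0.12, adjusted p = 0.0358) were higher in KO than in ctrl cells under Torin1. Vegfc mRNA was also higher in KO cells (1.01 ± 0.18, adjusted p = 0.0124).

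The last list held 14 mRNAs outside the members that are described as sensitive to eIF4E. Of these, Ccne1, Ccna2, Ccnb1 and Hif1a also stand in the lists above, so their calls are counted again here. Of the 9 tested, 3 rose and none fell in ctrl footprints under Torin1 (median 0.40), and 5 rose and 2 fell in KO footprints (median 0.39), against medians of 0.02 for all transcripts, of which 15.6% were called in ctrl and 40.6% in KO cells. Tlk2, a chromatin kinase, rose in both (0.82 ± 0.20, adjusted p = 0.00962, and 0.59 ± 0.12, adjusted p = 0.000276), as did the survival kinase Pim1 (0.75 ± 0.21, adjusted p = 0.0202, and 0.60 ± 0.15, adjusted p = 0.00189), whose mRNA rose as well (0.98 ± 0.13, adjusted p = 0.00110, and 0.90 ± 0.10, adjusted p = 0.000202). In KO footprints Mdm2 (0.39) and Ccnb1 (0.30) rose and Ccne1 (-0.50) and Rrm2 (-0.37) fell. All called genes of this list are named after their values were seen. No gene of these lists was called between genotypes in DMSO or in the interaction.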

How the data were processed

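RNA-seq (12 libraries) and ribo-seq (11) of N2a ctrl and eIF4E3 KO cells in DMSO or Torin1 were used. The authors trimmed the ribo-seq reads and aligned the reads of both assays to mm10 (HISAT2). They dropped reads on rRNA, tRNA or pseudogenes as defined by RepeatMasker, and then mapped to canonical transcripts of Ensembl release 84 (bowtie2). P-sites in ribo-seq were assigned with riboWaltz, and raw counts per CDS were deposited. Their fold change, p-value and TE columns were not used. One RNA-seq table repeats a replicate number in its header, so those columns were taken by genotype only.

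Counts were tested with edgeR 4.0.16 in R 4.3.3 (TMM, quasi-likelihood F-test, Benjamini-Hochberg, threshold 0.05) on transcripts above 1 CPM in every library of a condition, for each pair of conditions alone, with TE as the assay by condition interaction, and with the genotype by Torin1 interaction over all 4 conditions. Scripts were tested on simulated data. Alternatives were DESeq2 1.42.0, no scaling, no filter, a replicate block, all conditions together and each library left out. Per the labels, replicates were different passages, but it is not stated that equal numbers in different conditions share one. Deviations of same-numbered libraries correlated with a median r of 0.15 in RNA-seq (-0.04 to 0.74) and 0.04 in ribo-seq (-0.04 to 0.13). For libraries with different numbers the median was -0.07 (-0.59 to 0.43) in RNA-seq and -0.02 (-0.13 to 0.12) in ribo-seq. These ranges overlapped and the correlations are not independent, so they cannot decide whether equal numbers are paired. The pairing behind the replicate block is therefore not established by them, and fits with that block are given as an alternative. The members and lists were chosen with earlier results of these data known. Named companions are up to 3 called genes with the smallest adjusted p per list and comparison, picked from these same values, and Mycn, Bcl2, Birc2 and Cdk4. Further called genes are named where they complete a count. Gene models are from GENCODE M21. The p-values measure the spread between passages of the selected cells.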

Additional observations from a re-analysis of the deposited data

How the results depend on the processing

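The number of the 7 mRNAs called stayed within 1.5 times of that given for most alternatives. In ctrl cells under Torin1 the mRNA count of 1 became 0 without scaling, 2 with a replicate block and 2 with all 4 conditions together, and the TE count of 1 became 2 with DESeq2 and 2 with all 4 conditions together. In KO cells under Torin1 the mRNA count of 3 became 1 with all 4 conditions together. Between genotypes the mRNA count of 0 in DMSO became 1 with a replicate block, and in Torin1 the footprint count of 1 became 3 with a replicate block and the TE count of 1 became 0 with all 4 conditions together. With 1 library left out, the counts ranged in mRNA from 0 to 1 (ctrl Torin1) and 1 to 4 (KO Torin1), in footprints from 2 to 4 (ctrl Torin1), 4 to 5 (KO Torin1) and 0 to 2 (KO against ctrl in Torin1), and in TE from 0 to 2 (ctrl Torin1) and 0 to 1 (KO against ctrl in Torin1). The cause of these changes was not tested. No value that was called in any setting changed sign. Values called in neither fit changed sign in 14 of 504 refitted values under the other alternatives and in 84 of 966 with 1 library left out. The replicate block changed no call other than those given beside the results. Depth limits the footprint values of Bcl2l1, Xiap and Ccnd3, which rest on 4 to 176 counts per library. Over all transcripts the replicate block moved the mRNA calls from 299 to 1328 (ctrl Torin1), 1097 to 1797 (KO Torin1), 2 to 866 (genotypes, DMSO) and 216 to 1041 (genotypes, Torin1), TE calls from 299 to 541 (genotypes, Torin1) and footprint interaction calls from 12 to 35. DESeq2 moved the mRNA calls from 299 to 723 (ctrl Torin1), 2 to 21 and 216 to 342 (genotypes), footprint calls from 1670 to 956 (ctrl Torin1), 651 to 422 (genotypes, Torin1) and 12 to 38 (interaction), and TE calls from 299 to 506 (genotypes, Torin1). All 4 conditions together gave 1221 and 558 mRNA calls under Torin1, 19 and 6 between genotypes, 412 footprint calls and 73 TE calls between genotypes in Torin1, and 850 TE calls in ctrl Torin1. Without scaling 0, and without the filter 4, mRNAs differed between genotypes in DMSO.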
